A study of Mus musculus with 6 samples.

Results

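The genes described here are the 3 PPAR receptors (Ppara, Ppard and Pparg), the 3 RXR receptors (Rxra, Rxrb and Rxrg) and 3 coregulators (Ppargc1a, Ncor1 and Med1), measured in mouse pancreatic islets on 1-colour Affymetrix expression arrays. Members were all probe sets with a single gene symbol in the platform annotation that were assigned to 1 of these 9 genes. Where the annotated gene identifier was in the RefSeq table, the gene name was taken from there. Each probe set was kept apart so that those reading different stretches of a transcript could be compared. This gave 23 of the 45037 probe sets tested, for 8 of the 9 genes. They comprised 3 probe sets for Ppara, 2 for Ppard, 1 for Pparg, 3 for Rxra, 1 for Rxrb, 1 for Rxrg, 5 for Ppargc1a and 7 for Med1. Ncor1 had 0 probe sets under its name alone and is not analysed here, and 1 probe set that lists Ppard together with a second symbol was left unnamed.

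The control group held 3 mice with floxed PPARbeta alleles (PPARbetafl/fl, the gene Ppard) and no Cre, and the group labelled knockout held 3 Pdx1Cre;PPARbetafl/fl mice, in which Cre recombinase is driven by the Pdx1 promoter. The controls were littermates, all 6 mice were 8 weeks old on a mixed SV 129/C57BL/6 background, and all carried the floxed alleles. Pdx1 is active in the developing pancreas as a whole, so the promoter does not restrict Cre to beta cells. No Cre-positive mice with intact Ppard are in the data, so that deletion and Cre transgene cannot be told apart in any difference below. The comparison asks how islet transcripts differ between the genotypes, and here how the genes of the receptor complex itself stand.

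PPARs are nuclear receptors that bind fatty acids and their derivatives and bind DNA as a pair with an RXR, classically at a direct repeat of the half-site AGGTCA with 1 base between the copies. Without ligand the pair can hold corepressor complexes built on NCOR1, which recruit histone deacetylases. With ligand it exchanges them for coactivators such as PGC-1α (encoded by Ppargc1a), which drives mitochondrial and fatty acid oxidation genes, and the Mediator subunit MED1, which links receptors to RNA polymerase II. In beta cells, PPARs have been studied for their part in lipid handling and insulin secretion.

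All 6 arrays had similar overall values, with medians between 5.39 and 5.49 on the log2 scale. The labels name beta cells, and Iapp and Ins2, which encode the beta cell products amylin and insulin, lay at the top of the range (14.09 ± 0.03 and 13.85 ± 0.02 in controls, SD, n = 3), but so did the alpha cell genes Gcg (13.95 ± 0.02) and Ttr (13.52 ± 0.11), the delta cell gene Sst (13.45 ± 0.08) and Ppy of PP cells (13.06 ± 0.13), so the RNA held the other endocrine cells of the islet too. The preparations differed in exocrine RNA. Of 16 acinar markers measured, 14 had lower means in labelled knockouts (the brightest, the protease genes Ctrb1 and Cela3b, by -2.54 ± 1.16 and -2.37 ± 1.30, SE), and the acinar mean stood at 7.27 in control 1, 11.05 in control 2 and 11.01 in control 3, beside 8.86, 6.05 and 6.15 in labelled knockouts 1 to 3. Controls 2 and 3 therefore stood apart from the rest, and values without them, or with the acinar mean as a covariate, are given where they bear on a member. In bulk samples such as these, fewer cells of a type and less RNA per cell cannot be told apart. The Y-linked genes Eif2s3y and Kdm5d lay between 9.60 and 9.87 and between 8.33 and 8.90 on every array.

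Markers of the endocrine cells differed between the groups as well. The mean of 4 delta and PP cell markers was 10.44 to 10.64 in controls and 9.72 to 9.83 in labelled knockouts, that of 3 alpha cell markers 11.50 to 11.63 and 11.16 to 11.28, and that of 8 beta cell markers 11.72 to 12.04 and 11.37 to 11.72. The groups did not overlap in all 4 delta and PP cell markers, all 3 alpha cell markers and 1 of the 8 beta cell markers. Over all genes, the groups did not overlap in 3853 of 18193. Means were lower in labelled knockouts for every delta, PP and alpha cell marker and for 6 of the 8 beta cell markers. Among the latter, named after their values were seen, Ucn3 (-0.95), Slc30a8 (-0.82) and Slc2a2 (-0.62) differed most. Iapp (0.017), Ins2 (-0.050), G6pc2 (0.036), Pdx1 (-0.12) and Nkx6-1 (-0.13) differed less. In these 3 lists 2 genes passed (limma), where 1.10% of all genes did. Named here after their values were seen, the ghrelin receptor gene Ghsr fell by 1.17 (limma adjusted p = 0.00970). Slc30a8, the zinc transporter gene of insulin granules, fell by 0.82 (limma adjusted p = 0.0394). Both calls were lost with the acinar covariate, without controls 2 and 3 and with the replicate block, and that of Slc30a8 also with array medians subtracted (adjusted p = 0.0607). Leaving out single arrays gave Ghsr an adjusted p of 0.0207 to 0.0604, lost without knockout 1 or knockout 2, and Slc30a8 0.0452 to 0.175, lost without any array but control 2. These markers shared the direction of the group difference with the lower member values below, and their part in those values was not tested.

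No member probe set passed the test. With limma and Benjamini-Hochberg adjustment across the whole array, 0 of 23 had an adjusted p under 0.05, against 0.897% of all probe sets. The smallest adjusted p was 0.108. At an unadjusted p under 0.05 there were 5 of 23 (2 of Ppard, higher, and 1 of Rxra and 2 of Ppargc1a, lower), where 12.9% of all probe sets reached it (7.09% higher and 5.82% lower). The groups did not overlap in 5 of 23, 1 higher and 4 lower, against 19.0% of all probe sets (10.1% higher and 8.85% lower). The means were lower in labelled knockouts for 17 probe sets and higher for 6, where 46.7% of all probe sets were higher, and the median difference was -0.15, beside -0.017 over all probe sets. Probe sets of 1 gene read the same transcripts, so these 23 are not independent.

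**Figure D1:**
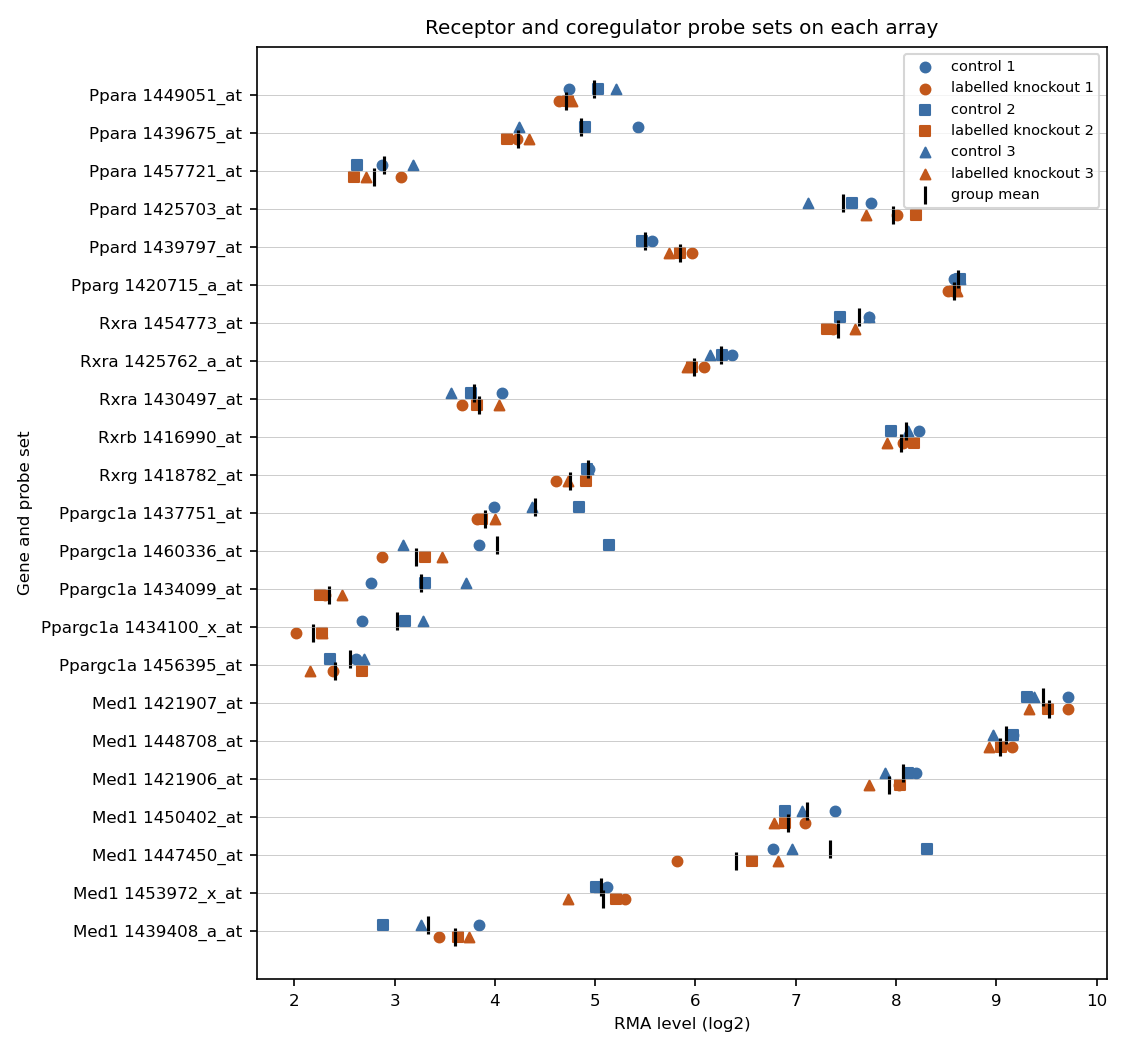
RMA levels (log2, horizontal axis) of the 23 probe sets (vertical axis) on each of the 6 arrays: blue points are controls, orange points labelled knockouts, the marker shape gives the replicate number, and the black ticks are group means. The 2 Ppard rows have higher means in labelled knockouts, all 5 Ppargc1a rows have lower ones, and the single Pparg row has both groups near 8.6.

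Ppard, the gene targeted in these mice, encodes PPARβ/δ, the most widely expressed of the 3 PPARs. Its promoter window as annotated by RefSeq on GRCm38.p6 is shown beside that of Ppargc1a, because these are the targeted gene and the gene whose probe sets lay furthest below the controls as a group. Each runs from 250 bases before to 50 bases after the annotated start, 5′ to 3′ on the gene's strand, at chr17:28232504-28232803 (plus strand) for Ppard and chr5:51567676-51567975 (minus strand) for Ppargc1a. Capitals mark AGGTCA and TGACG, the half-element of cyclic AMP response sites, searched on both strands, so that CGTCA is TGACG on the other strand. These motifs share at most the letters TGAC and do not overlap in either window.
Ppard: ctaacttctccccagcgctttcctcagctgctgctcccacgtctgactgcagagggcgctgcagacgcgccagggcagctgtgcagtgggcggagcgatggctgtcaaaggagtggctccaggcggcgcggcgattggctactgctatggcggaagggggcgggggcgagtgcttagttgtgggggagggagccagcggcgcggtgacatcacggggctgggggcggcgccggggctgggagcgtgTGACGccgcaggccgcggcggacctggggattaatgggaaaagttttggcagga
Ppargc1a: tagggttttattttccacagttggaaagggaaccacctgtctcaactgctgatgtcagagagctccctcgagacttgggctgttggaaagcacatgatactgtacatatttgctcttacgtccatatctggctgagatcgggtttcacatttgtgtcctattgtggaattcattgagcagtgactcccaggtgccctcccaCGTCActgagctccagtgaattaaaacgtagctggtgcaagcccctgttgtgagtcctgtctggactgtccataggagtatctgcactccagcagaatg
Each window held 1 TGACG, beginning 4 bases before the start in Ppard and 49 bases before it in Ppargc1a, and no AGGTCA. Over the 32851 promoter windows of the RefSeq table, 20.8% held TGACG and 16.3% held AGGTCA. Among the 15 windows of the 9 genes, 4 held AGGTCA, in Pparg, Rxra and Rxrg, and 4 held TGACG, in Ppara, Ppard, Ppargc1a and Rxrb. The full repeat AGGTCANAGGTCA was in 0 of these 15 windows and in 0.0396% of all windows. A match is only a run of letters, and the arrays measured no binding.

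Both Ppard probe sets had higher means in labelled knockouts. The dimmer one, 1439797_at, read 5.57, 5.47 and 5.47 in controls 1 to 3 and 5.97, 5.84 and 5.73 in labelled knockouts 1 to 3. The 3 controls spanned 0.10 here, and all 3 arrays labelled knockout stood above them. The difference was 0.35 ± 0.11 (SE), with a 95% interval of 0.089 to 0.61 that is not adjusted for the number of probe sets, and it did not pass (limma adjusted p = 0.255). On the brighter probe set, 1425703_at, the difference was 0.49 ± 0.20 (95% interval 0.010 to 0.97, adjusted p = 0.377), and the groups overlapped between control 1 (7.75) and knockout 3 (7.70). Neither of these probe sets of the targeted gene was lower in labelled knockouts, and the probe set that lists Ppard with a second symbol was not read. Without controls 2 and 3, the brighter probe set differed by 0.22 and the dimmer by 0.28, and with the acinar covariate by 0.31 and 0.36 (adjusted p between 0.548 and 0.815 in these 4 values).

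The 2 probe sets of Ppard differed between groups by similar amounts. The brighter over the dimmer gave log2 ratios of 2.18, 2.10 and 1.65 in controls and 2.04, 2.35 and 1.96 in labelled knockouts, with overlapping groups. The ratio differed by 0.14 ± 0.19 (95% interval -0.31 to 0.59, limma adjusted p = 0.883 over 16752 such ratios), so unequal change of the regions read by these probe sets was not detected, within an interval that still holds shifts of that size. The labels name no deleted exon, and neither probe set checks the deletion if it lies outside it. By likeness over the 6 arrays, the genes closest to 1425703_at among 11081 other genes brighter than the array median were Far1 (Pearson r = 0.996), which makes fatty alcohols for ether lipids, Atp11b (0.994), a phospholipid flippase, and Ppp1r21 (0.992). With only 6 arrays, 75 genes had r above 0.95, so these names describe the pattern of the 6 values and no more.

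Ppara encodes the PPAR of liver and other tissues that burn fat. Its 3 probe sets all had lower means in labelled knockouts, none past the test. Probe set 1439675_at read 5.43, 4.90 and 4.24 in controls 1 to 3 and 4.23, 4.12 and 4.34 in labelled knockouts. Control 1 was the highest array and control 3 lay among labelled knockouts, so the difference of -0.63 ± 0.28 (adjusted p = 0.416) turned on which controls were used. It was -0.34 without control 1 and -1.20 against control 1 alone (adjusted p = 0.466 and 0.109). Probe set 1449051_at ordered the controls the other way, with 4.74, 5.03 and 5.20 in controls and 4.64, 4.73 and 4.77 in labelled knockouts, a difference of -0.28 ± 0.14 (adjusted p = 0.472). Its 2 highest arrays were controls 2 and 3, the ones rich in acinar RNA, and against control 1 alone the difference was -0.031. The dimmest, 1457721_at, differed by -0.10 ± 0.19 with a control mean at percentile 15.2 of all probe sets, and its sign turned with the acinar covariate (0.052) and without control 3 (0.041).

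Pparg encodes the PPAR of adipocytes and macrophages, the receptor of the glitazone drugs. Its probe set 1420715_a_at, whose suffix marks probes shared by transcript variants of 1 gene, read 8.57, 8.64 and 8.64 in controls and 8.52, 8.59 and 8.61 in labelled knockouts. All 6 values spanned 0.12 and the groups overlapped. The difference of -0.043 ± 0.097 (adjusted p = 0.899) had a 95% interval of -0.27 to 0.19, the narrowest of the 23, and it became 0.010 when array medians were subtracted. Of 5 adipocyte markers measured, Fabp4, the brightest, is described with the fatty acid carriers below. The next, Retn, which encodes the hormone resistin, stood at 5.06 ± 0.14 in controls and 4.89 ± 0.22 in labelled knockouts (SD, n = 3), at percentile 45.1 of all probe sets in controls. Apart from Fabp4, the groups overlapped in every adipocyte marker measured, with differences of -0.17 to 0.10.

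The RXRs are the shared partners of PPARs and of several other nuclear receptors. Rxra had 2 brighter probe sets with lower means in labelled knockouts. Probe set 1425762_a_at read 6.36, 6.26 and 6.15 in controls and 6.09, 5.96 and 5.92 in labelled knockouts, so the groups did not overlap, with a gap of 0.058 between them. The difference was -0.27 ± 0.11 (95% interval -0.53 to -0.0026, adjusted p = 0.382). The brightest, 1454773_at, differed by -0.21 ± 0.13 (adjusted p = 0.570), with knockout 3 (7.59) above control 2 (7.45). Their ratio differed by 0.057 ± 0.17 between groups (adjusted p = 0.965). The dimmest, 1430497_at, differed by 0.049 ± 0.17 and became -0.24 with the acinar covariate and -0.23 against control 1 alone.

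Rxrb and Rxrg had 1 probe set each. Rxrb read 8.23, 7.95 and 8.12 in controls and 8.07, 8.18 and 7.91 in labelled knockouts, with fully mixed groups. The difference was -0.046 ± 0.13 (adjusted p = 0.921), and it was 0.0073 when array medians were subtracted. Rxrg, whose product is found mainly in muscle, brain and some endocrine cells, read 4.94, 4.92 and 4.93 in controls and 4.61, 4.90 and 4.73 in labelled knockouts. The controls spanned 0.024 and knockout 2 lay just below them, which leaves the groups apart by 0.013. The difference of -0.18 ± 0.11 did not pass (95% interval -0.45 to 0.089, adjusted p = 0.565). The lower Rxra and Rxrg values shared the direction of the group difference with the mean of each endocrine marker list given above, beta cells included. With the acinar covariate and against control 1 alone, Rxra 1425762_a_at differed by -0.29 and -0.37. In the same settings Rxra 1454773_at differed by -0.31 in each and Rxrg by -0.26 and -0.19.

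Among the coregulators, Ppargc1a had lower means in labelled knockouts on all 5 probe sets, by -0.15 to -0.91, and none passed. Probe set 1434099_at read 2.77, 3.31 and 3.71 in controls 1 to 3 and 2.31, 2.26 and 2.48 in labelled knockouts, a difference of -0.91 ± 0.23 (95% interval -1.47 to -0.36, adjusted p = 0.169). Probe set 1434100_x_at read 2.68, 3.10 and 3.29 and then 2.01, 2.27 and 2.28, a difference of -0.83 ± 0.18 (95% interval -1.26 to -0.41, adjusted p = 0.108). In both, every array labelled knockout lay below every control, and controls 2 and 3 were the highest arrays. These 2 probe sets were designed on the same source sequence, and the suffix of the second marks probes that may also match other sequences, so they are close to 1 measurement.

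The other Ppargc1a probe sets overlapped between groups. Probe set 1437751_at, the brightest, read 3.99, 4.84 and 4.37 in controls and 3.82, 3.88 and 4.002 in labelled knockouts, a difference of -0.50 ± 0.21 (adjusted p = 0.391). Only control 1 fell within the range of labelled knockouts. Probe set 1460336_at differed by -0.80 ± 0.48 (adjusted p = 0.546), and control 2 alone, at 5.14, stood above the rest, so that the difference without it was -0.25. Probe set 1456395_at differed by -0.15 ± 0.17 (adjusted p = 0.764). No ratio of the brightest to another Ppargc1a probe set differed past the test (differences of -0.35 to 0.41, adjusted p 0.657 to 0.880).

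All Ppargc1a levels were dim, with control means between percentile 10.1 and 36.3 of all probe sets, and a fold between dim levels is open to the background of the arrays. The acinar mean was lower in labelled knockouts too, as were the means of the alpha cell, the beta cell and the delta and PP cell markers. Within controls 1 to 3, 1434099_at rose (2.77, 3.31 and 3.71), and the acinar mean was 7.27, 11.05 and 11.01. There the alpha cell mean fell (11.63, 11.56 and 11.50), and the delta and PP cell mean was 10.64, 10.44 and 10.50. The beta cell mean in these controls was 12.04, 11.72 and 11.91. Knockout 1 had an acinar mean of 8.86 and a 1434099_at value of 2.31. With the acinar covariate, 1434099_at differed by -0.58 and 1434100_x_at by -0.68 (adjusted p = 0.588 and 0.462). Against control 1 alone, an array with less acinar RNA than knockout 1, they differed by -0.42 and -0.49. The brightest probe set, 1437751_at, moved more: its difference of -0.50 became -0.24 with the covariate and -0.090 against control 1 alone (adjusted p = 0.866 and 0.867), and it was -0.28 without control 2. Without control 1, where both remaining controls are the acinar-rich ones, both passed (-1.16 and -1.01, adjusted p = 0.0313 and 0.0321). These were the only 2 member calls in any of the alternatives run, where 1.74% of all probe sets were called (0.644% lower). The part of acinar RNA in the difference was not tested.

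**Figure D2:**
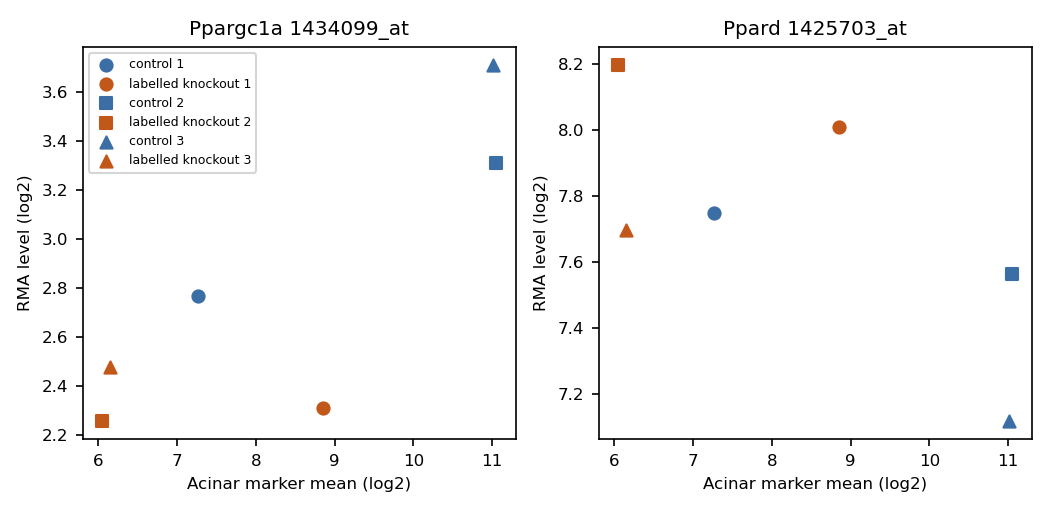
RMA level (log2, vertical axis) of Ppargc1a probe set 1434099_at (left) and Ppard probe set 1425703_at (right) against the mean of 16 acinar markers on each array (log2, horizontal axis), 1 point per array. Controls 2 and 3 sit at an acinar mean near 11, with the highest Ppargc1a and the lowest Ppard values, while control 1 lies at 7.27, between knockout 3 and knockout 1.

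Med1 had 7 probe sets, whose differences ran from -0.95 to 0.28, none past the test. The brightest, 1421907_at, read 9.72, 9.30 and 9.37 in controls and 9.71, 9.52 and 9.33 in labelled knockouts, a difference of 0.057 ± 0.16 (95% interval -0.32 to 0.43, adjusted p = 0.921). Both groups covered nearly the same range. Probe set 1448708_at, nearly as bright, differed by -0.059 ± 0.12 (adjusted p = 0.884). Probe sets 1421906_at and 1450402_at, which share their source sequence with 1421907_at, differed by -0.14 ± 0.14 and -0.19 ± 0.16 (adjusted p = 0.743 and 0.674). Both values turned on single arrays. With 1 array left out, 1421906_at ranged from -0.23 (without control 3) to -0.036 (without knockout 3) and 1450402_at from -0.30 (without control 2) to -0.056 (without control 1). Against control 1 alone they differed by -0.26 and -0.47 (adjusted p = 0.627 and 0.393).

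The ratio of 1421907_at to 1450402_at was the only within-gene ratio of the 15 computed for these genes in which the groups did not overlap, where 14.2% of all such ratios did not. It was 2.33, 2.41 and 2.31 in controls and 2.62, 2.63 and 2.55 in labelled knockouts, with little spread in either group. The difference of 0.25 ± 0.11 did not pass (95% interval -0.0073 to 0.51, adjusted p = 0.576). With limma 0 of the 15 ratios had an adjusted p under 0.05, against 0.125% of all ratios, and 0 had an unadjusted p under 0.05, against 8.89%.

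Of the remaining Med1 probe sets, 1447450_at varied most between arrays. It read 6.77, 8.30 and 6.97 in controls and 5.81, 6.57 and 6.82 in labelled knockouts, a difference of -0.95 ± 0.44 (adjusted p = 0.433). Control 2 alone was high, and without it the difference was -0.47. Probe sets 1453972_x_at (0.020 ± 0.16) and 1439408_a_at (0.28 ± 0.24, control mean at percentile 21.7) overlapped between groups. The latter became -0.17 with the acinar covariate and -0.24 against control 1 alone.

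**Figure D3:**
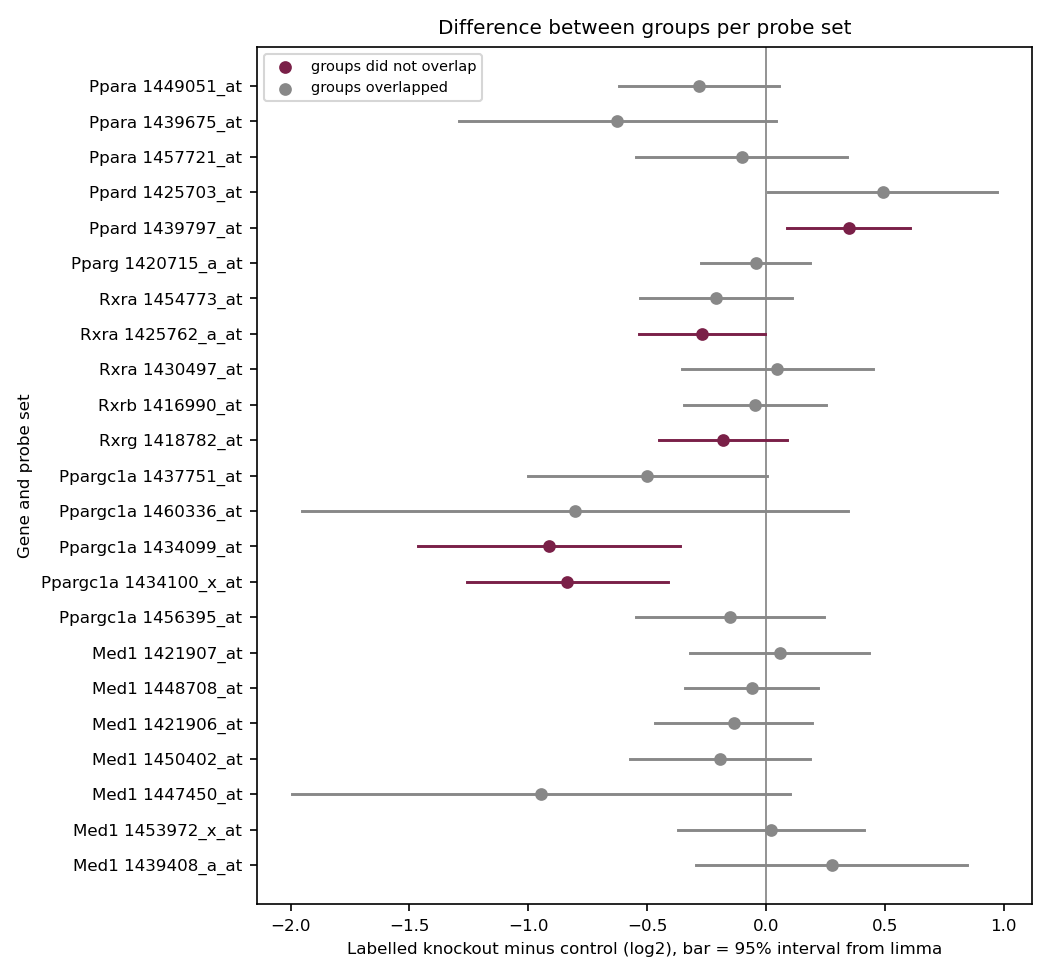
Difference of group means (labelled knockout minus control, log2, horizontal axis) for each of the 23 probe sets (vertical axis), with bars for the 95% interval from limma, not adjusted for the number of probe sets, and dark colour where the 3 against 3 arrays did not overlap. The interval lies on 1 side of 0 for 5 probe sets, 2 of Ppard above and 1 of Rxra and 2 of Ppargc1a below, and is widest for Ppargc1a 1460336_at and Med1 1447450_at.

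The rest of the pathway was read from 5 lists taking for each gene the probe set with the highest mean. Of 83 genes measured, 1 rose and 0 fell, where 1.10% of all genes passed (0.852% higher, 0.247% lower). Over all genes, 50.4% had the higher mean in labelled knockouts. None of 19 other coactivators passed (limma, 4 with an unadjusted p under 0.05, against 14.0% of all genes), with 9 higher and 10 lower means and a median difference of -0.044, beside 0.0020 over all genes. The smallest p among them were those of the arginine methyltransferase gene Carm1 (0.41 ± 0.12, adjusted p = 0.224), Helz2 (0.55 ± 0.18, adjusted p = 0.279), a helicase that binds PPARs, and the Mediator kinase module gene Med12 (-0.34 ± 0.11, adjusted p = 0.281). Ppargc1b, the close relative of Ppargc1a, differed by -0.21 ± 0.12 (adjusted p = 0.537), a gene picked with its values in view.

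None of 11 other corepressors passed, with 8 higher means, a median of 0.067 and 0 with an unadjusted p under 0.05. Tbl1xr1 (0.31 ± 0.13), a subunit of the NCOR1 complex, Sin3a (0.37 ± 0.18), the scaffold of another deacetylase complex, and the repressor gene Bcl6 (0.43 ± 0.31) had the smallest p, with adjusted p between 0.401 and 0.616. None of 12 other receptors that pair with RXR passed (2 with an unadjusted p under 0.05, against 14.0% of all genes), with 5 higher means and a median of -0.071. The thyroid hormone receptor genes stood on opposite sides, Thra at -0.46 ± 0.13 (adjusted p = 0.224) and Thrb at 0.43 ± 0.17 (adjusted p = 0.346), followed by Nr1h3, which encodes the sterol receptor LXRα (-0.29 ± 0.15, adjusted p = 0.475).

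Of 18 genes of fatty acid uptake, release and carriage none passed, 7 had an unadjusted p under 0.05 (14.0% of all genes did), 11 had higher means and the median was 0.049. Fabp4, a fatty acid carrier of adipocytes, macrophages and capillary endothelium, read 10.02, 10.17 and 9.78 in controls and 11.11, 10.71 and 11.13 in labelled knockouts. All 3 of the latter lay above all controls, a difference of 0.99 ± 0.17 (adjusted p = 0.0550), which passed when array medians were subtracted (1.05, adjusted p = 0.0436). Of 9 immune markers 8 had higher means, the brightest being Cd74 (0.61 ± 0.20) and Tyrobp (0.65 ± 0.13), neither past the test, and their mean per array was 5.90 to 5.95 in controls and 6.28 to 6.42 in labelled knockouts. Of 7 endothelial markers 6 had higher means and none passed, the brightest being Kdr (0.027 ± 0.19) and Emcn (-0.17 ± 0.23). The endothelial mean per array was 7.46 to 8.25 in controls and 7.95 to 8.13 in labelled knockouts. The part of immune or endothelial cells in the Fabp4 values was not tested. Fabp3, the carrier of heart and muscle, lay the other way at -0.91 ± 0.16 (adjusted p = 0.0614), and the acyl-CoA synthetase gene Acsl4 differed by 0.55 ± 0.12 (adjusted p = 0.107). With dim probe sets left out of the fit, Fabp4 and Fabp3 passed (limma adjusted p = 0.0328 and 0.0357). They also passed with an intensity trend and robust prior (limma adjusted p = 0.0118 and 0.0389), as did Acsl4 (0.0350). Neither Fabp4 nor Fabp3 passed with the replicate block, with the acinar covariate or with any single array left out.

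Of 23 PPAR target genes 1 rose, 0 fell and 22 did not pass, with 14 higher means and a median of 0.057. The exception was Ehhadh, which encodes the bifunctional enzyme of peroxisomal fatty acid oxidation. It read 5.85, 5.60 and 5.57 in controls and 7.60, 8.01 and 7.62 in labelled knockouts, a difference of 2.07 ± 0.15 (adjusted p = 0.00289). The difference passed with the replicate block (limma adjusted p = 0.0200) and with any single array left out (0.00536 to 0.0220). With the acinar covariate it was 1.87 (adjusted p = 0.0322), and against control 1 alone it was 1.90, where the call was lost (adjusted p = 0.0826). Acot2, a mitochondrial acyl-CoA thioesterase gene, differed by -0.74 ± 0.13 and Slc25a20, the carnitine-acylcarnitine carrier gene, by 0.62 ± 0.11 (adjusted p = 0.0606 and 0.0651). Both passed when dim probe sets (mean below the array median) were left out of the fit (limma adjusted p = 0.0330 for each). They also passed with an intensity trend and robust prior (limma adjusted p = 0.0186 and 0.0164), and Acot2 after quantile normalization again (0.0412). Neither passed with the replicate block, with the acinar covariate or with any single array left out. Targets named in most accounts of PPARβ/δ, chosen here after their values were seen, differed in both directions without passing: Pdk4, which restrains glucose oxidation, differed by -0.60 ± 0.33 (adjusted p = 0.507), Angptl4, an inhibitor of lipoprotein lipase, by 0.026 ± 0.14 (adjusted p = 0.962) and Cpt1a, the gate of mitochondrial fatty acid entry, by 0.28 ± 0.12 (adjusted p = 0.397).

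**Figure D4:**
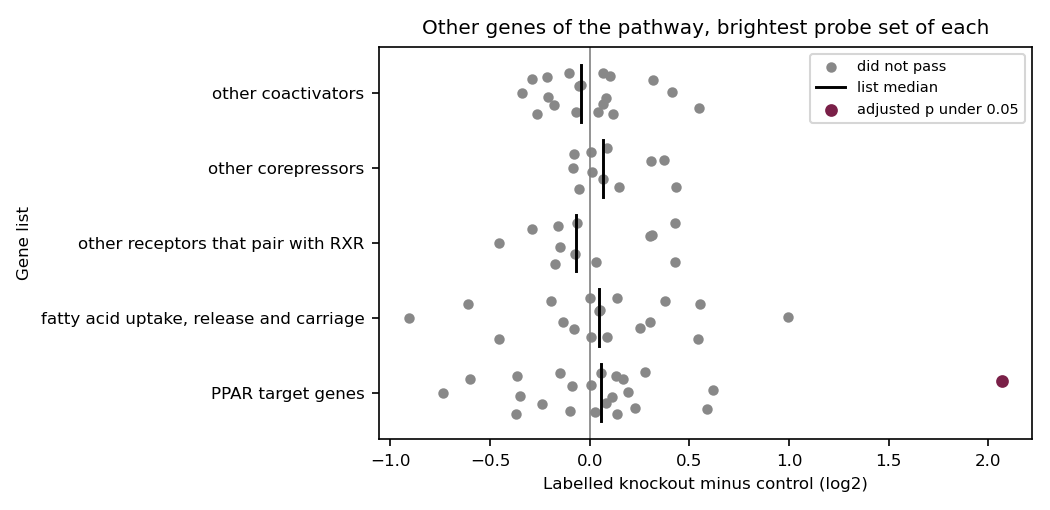
Difference of group means (labelled knockout minus control, log2, horizontal axis) for 83 genes in 5 lists, each by its brightest probe set (vertical axis, spread for legibility), with black lines at the list medians. The dark point is Ehhadh at 2.07, the 1 gene past adjusted p 0.05, and the list medians lie between -0.071 and 0.067.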

How the data were processed

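RNA of 6 islet preparations, each from a different mouse per the series' design text, was hybridised to 6 arrays. The authors deposited 1 log2 value per probe set and array, made with RMA per the submitters' processing notes, a method of background correction, quantile normalization and probe set summary whose version is not given in the sources used here. Of 45101 probe sets, 64 manufacturer controls were left out. Platform annotation gave 34945 probe sets a single symbol, 932 several and 9160 none, and 34741 found their gene identifier in the RefSeq table of GRCm38.p6. The test was limma's moderated one (version 3.58.1, R 4.3.3), two-sided with group as the only term, with Benjamini-Hochberg adjustment across the array. The same fit was run on log2 ratios of each gene's brightest probe set to its others (16752 ratios of 9010 genes). RMA values carry no detection call, and 3 arrays per group limit the precision. Named were all members, the called genes and 3 smallest p of each pathway list, and the 2 brightest of each marker list the text describes (the rule covered all marker lists), with other names marked. Members and lists were chosen with earlier results of these data known. Of 91 pathway and 86 marker entries, 83 and 69 had a probe set named for them alone. The fits were run on simulated data with independent noise per probe set and no variation shared between arrays. There the main fit recovered the mean size of the added differences, which does not check the calls made here. Same-numbered arrays of both groups deviated from their group means with correlations of -0.0542, 0.141 and 0.00454. Different-numbered arrays gave -0.129 to 0.105. With 3 arrays per group these values cannot decide whether the numbers mark pairs. The main fit did not take them as pairs, and the replicate block is an alternative that does.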

Additional observations from a re-analysis of the deposited data

How the results depend on the processing

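Alternatives were chosen with earlier results of these data known. The member count stayed at 0 in all but 1: it was 0 to 2 with 1 array left out, the 2 being the Ppargc1a calls without control 1. Calls over the whole array were 404, and became 903 with an intensity trend and robust prior, 246 with the replicate block, 100 with the acinar covariate, 54 without controls 2 and 3 (1 control left, assumed to vary like the others), and 152 to 783 with 1 array left out. The share of higher calls, 79.5% over all 6 arrays, was 63.0% without control 1. Within-gene ratio calls over the whole array were 21, and became 0 above the median mean, 10 with the robust prior, 0 with the replicate block, 0 with the acinar covariate, 0 without controls 2 and 3, and 0 to 22 with 1 array left out (where the count was 0, limma gave 785 to 1652 ratios with an unadjusted p under 0.05). Member ratio calls were 0 throughout. Pathway calls were 1, and became 2 with array medians subtracted (Ehhadh, Fabp4), 2 after quantile normalization again (Ehhadh, Acot2), 6 above the median mean, 8 with the intensity trend and 0 without controls 2 and 3. The cause of these moves was not tested. In 7 member probe sets the sign turned under some alternative, never with a call: Ppara 1457721_at (0.052 with the acinar covariate), Pparg (0.010) and Rxrb (0.0073) with medians subtracted, Rxra 1430497_at (-0.24 with the covariate, -0.23 against control 1 alone), and Med1 1421907_at (-0.025 and -0.19), 1439408_a_at (-0.17 and -0.24) and 1453972_x_at (-0.042 against control 1 alone). With 1 array left out, the range was -0.24 to 0.041 for Ppara 1457721_at, -0.071 to 0.19 for Rxra 1430497_at, -0.12 to 0.023 for Rxrb, -0.039 to 0.18 for Med1 1421907_at and -0.091 to 0.19 for 1453972_x_at. The replicate block changed no member call.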
